A study of Mus musculus with 24 samples.

Results

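In mouse embryonic stem cell (ESC) clones grown for 6 days without leukemia inhibitory factor (D6), 34 of 22926 gene symbols were higher in DKO and TKO than in WT while staying near or below WT in *Tet2*-/-. The members were chosen from the D6 counts themselves. With counts scaled to 1000000 per library (CPM) and the level taken as log2(CPM + 1), a member had every one of its 4 DKO and TKO libraries above all 3 WT libraries, a DKO minus WT and a TKO minus WT difference of at least 0.8 each, and a *Tet2*-/- minus WT difference under 0.5. Symbols starting with Zscan4, Hox or Col were to be left out, and 0 of those met the other criteria. Other settings of the rule gave 15 to 91 members. The D6 levels of WT, *Tet2*-/-, DKO and TKO are therefore a description of the members, and no test was made on them.

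All clones derive from 1 parental clone of 129/SVj ESCs whose Oct4 (*Pou5f1*) locus also expresses eGFP, an insertion that every group shares. Guide RNAs and Cas9 had been used to disrupt *Tet1* alone (*Tet1*-/-), *Tet2* alone (*Tet2*-/-), *Tet1* and *Tet2* (DKO) or *Tet1*, *Tet2* and *Tet3* (TKO). Polyadenylated RNA was sequenced on D0, with leukemia inhibitory factor (LIF) present, and on D6, and each library is 1 clone. WT and *Tet1*-/- had 3 libraries a day and the other genotypes 2, giving 24 in all. The same clones were used on both days except that *Tet1*-/- clone 2.3 was sequenced on D0 only and clone 2.2 on D6 only, and replicate numbers of *Tet2*-/- and TKO mark the same clone on both days (TKO replicate 1 is clone 8.4). The spread between libraries of a genotype thus includes whatever differs between clones.

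Tet proteins oxidize 5-methylcytosine, a step towards removing DNA methylation. In culture, LIF signals through Stat3 to sustain self-renewal of mouse ESCs, and cells that lose this signal leave the naive state. Many genes of the germ line carry promoters that are methylated and silent in somatic cells, and such genes are often transcribed at low levels in ESCs. Meiotic genes build the synaptonemal complex, which holds paired chromosomes together, and the piRNA pathway silences transposons in germ cells.

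Of the 34 members, 24 matched a promoter in the RefSeq table (build GRCm38.p6), read from 250 bases before to 50 bases after the first listed start. The promoters of 3 germ cell members among the 6 with the largest D6 differences, *Mael*, *Brdt* and *Taf7l*, are shown with that of *Flrt2*, the member called at D0 in the average of DKO and TKO. They were picked after their content was known because each holds CACGTG, an E-box, which is written in capitals. The windows are chr1:166238695-166238994 on the minus strand for *Mael*, chr5:107330944-107331243 on the plus strand for *Brdt*, chrX:134476441-134476740 on the minus strand for *Taf7l* and chr12:95691976-95692275 on the plus strand for *Flrt2*.
Mael: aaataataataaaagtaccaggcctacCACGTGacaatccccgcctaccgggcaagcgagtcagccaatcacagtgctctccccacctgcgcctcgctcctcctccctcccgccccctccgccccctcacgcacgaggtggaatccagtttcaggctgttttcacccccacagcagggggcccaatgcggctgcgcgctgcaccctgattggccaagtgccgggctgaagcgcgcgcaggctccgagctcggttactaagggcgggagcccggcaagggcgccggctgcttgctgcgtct
Brdt: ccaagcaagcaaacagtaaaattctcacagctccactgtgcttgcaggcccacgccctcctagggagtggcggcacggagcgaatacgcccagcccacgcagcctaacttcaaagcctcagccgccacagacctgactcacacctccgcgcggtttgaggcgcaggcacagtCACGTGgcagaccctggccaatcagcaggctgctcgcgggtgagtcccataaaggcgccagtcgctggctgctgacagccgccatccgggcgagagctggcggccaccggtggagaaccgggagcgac
Taf7l: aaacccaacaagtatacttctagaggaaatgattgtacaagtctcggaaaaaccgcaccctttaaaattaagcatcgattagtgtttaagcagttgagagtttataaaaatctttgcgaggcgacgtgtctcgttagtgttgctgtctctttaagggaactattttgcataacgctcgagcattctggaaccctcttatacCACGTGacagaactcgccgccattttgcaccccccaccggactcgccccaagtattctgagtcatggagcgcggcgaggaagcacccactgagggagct
Flrt2: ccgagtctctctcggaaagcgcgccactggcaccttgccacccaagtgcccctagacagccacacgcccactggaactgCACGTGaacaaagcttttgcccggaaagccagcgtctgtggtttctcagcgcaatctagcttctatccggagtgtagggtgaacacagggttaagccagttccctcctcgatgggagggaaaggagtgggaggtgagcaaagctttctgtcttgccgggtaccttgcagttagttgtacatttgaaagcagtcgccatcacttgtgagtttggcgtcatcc
CACGTG stood in 6 of 24 member promoters (25%: *Brdt*, *Flrt2*, *Il1r2*, *Mael*, *Slamf9* and *Taf7l*) and in 8.83% of the 15838 promoters of genes with a D6 count. The other motifs searched on both strands were nearer to the share in all promoters. GGGCGG stood in 54.2% of member promoters and 52.4% of all, CCAAT in 41.7% and 38.7%, TATAAA in 16.7% and 10.2%, and TGANTCA in 16.7% and 6.61%. GGAATG stood in 12.5% and 13.2%, TTCNNNGAA in 12.5% and 7.47%, CAGGTG in 12.5% and 19.6%, ATTTGCAT in 4.17% and 1.63%, and CATTGT in 4.17% and 9.41%. TGACGTCA and CTTTGAT stood in 0 of the 24 windows, against 2.63% and 3% of all. These are matches of letters, not binding sites. Member promoters held a median of 14.5 CG pairs (1 to 34), and all promoters a median of 16. The 12 promoters of members sorted by hand as germ cell genes had a median of 16.5 CG pairs and ranged from 1 in *Usp17la* to 34 in *Hsf5*.

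The counts summed to 21729346 to 37290208 per library at D0 and 18400463 to 34219640 at D6, so that 3 counts, the limit that a count of 0 allows, equal 0.0805 to 0.163 CPM (counting error only). *Pou5f1* lay between 549 and 827 CPM in every D0 library and between 177 and 586 CPM in every D6 library, so this defining ESC gene was present throughout. The summed D6 level of 15 naive pluripotency genes was 2246 to 2266 CPM in TKO and 1556 to 1618 in DKO, beside 747 to 1995 in WT, 883 to 1663 in *Tet1*-/- and 2043 to 2159 in *Tet2*-/-, and its part in the members' levels was not tested. The guides cause small insertions or deletions, so the RNA of a targeted gene need not fall. *Tet1* RNA was 89.2, 116 and 332 CPM in *Tet1*-/- at D0 against 214, 354 and 416 in WT, 216 and 346 in DKO, and 536 and 38.4 in TKO replicates 1 and 2. *Tet2* RNA was 19.5 and 21.3 in *Tet2*-/- against 84.6 to 91.0, and *Tet3* RNA was 2.62 and 4.18 in TKO against 4.88 to 7.73. At D6 *Tet2* RNA in *Tet2*-/- (16.2 and 16.9 CPM) lay within or at the edge of the WT range (13.2 to 16.9). TKO replicate 2 stood apart by chromosome. Relative to all genes, its median gene on chromosomes 6 and 12 was 0.43 and 0.40 above WT at D0 and 0.46 and 0.44 above WT at D6 on the log2 scale, and on chromosome 11 it was 0.39 above WT at D0. Chromosome 8 was 0.35 and 0.43 above WT in the *Tet2*-/- clones and 0.32 above WT in *Tet1*-/- clone 2.4 at D6. These were the 8 shifts over 0.3 among 252 pairs of a knockout library and a chromosome that holds a member. GENCODE vM1 (mm9) places 33 of the members. On chromosome 1 lie 6 (18.2%, against 5.82% of all placed symbols with a D6 count). Chromosomes 11 and 12 hold 4 each (12.1%, against 8.08% and 3.16%), and chromosome X holds 3 (9.09%, against 4.15%). Chromosomes 6 and 8 hold 2 each (6.06%, against 5.15% and 4.94%). The part of these shifts in the members' values was not tested.

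Across all symbols with a D6 count, 6.84% (1398 of 20441) had every DKO and TKO library above every WT library, which the rule required of all 34 members. The DKO minus WT difference of the members had a median of 1.18 (0.80 to 2.28) and the TKO minus WT difference a median of 1.03 (0.81 to 2.00), beside a median of 0.00 for both over all symbols. On this scale a change of a low gene is understated, and in bulk libraries fewer cells of a type and less RNA per cell cannot be told apart. The DKO difference was the larger for 20 members and the TKO difference for 14. Both DKO libraries lay above both TKO libraries for 7 members (20.8% of all symbols), among them *Mael*, *Ido2*, *Taf7l*, *Folr1*, *Mme* and *Ccdc36*. The reverse held for 5 (15.5% of all symbols): *Tex19.1*, *Klhl13*, *Dpep3*, *6430531B16Rik* and *Trim16*. The plot of 31 members by library shows the D6 rise next to D0.

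**Figure D1:**
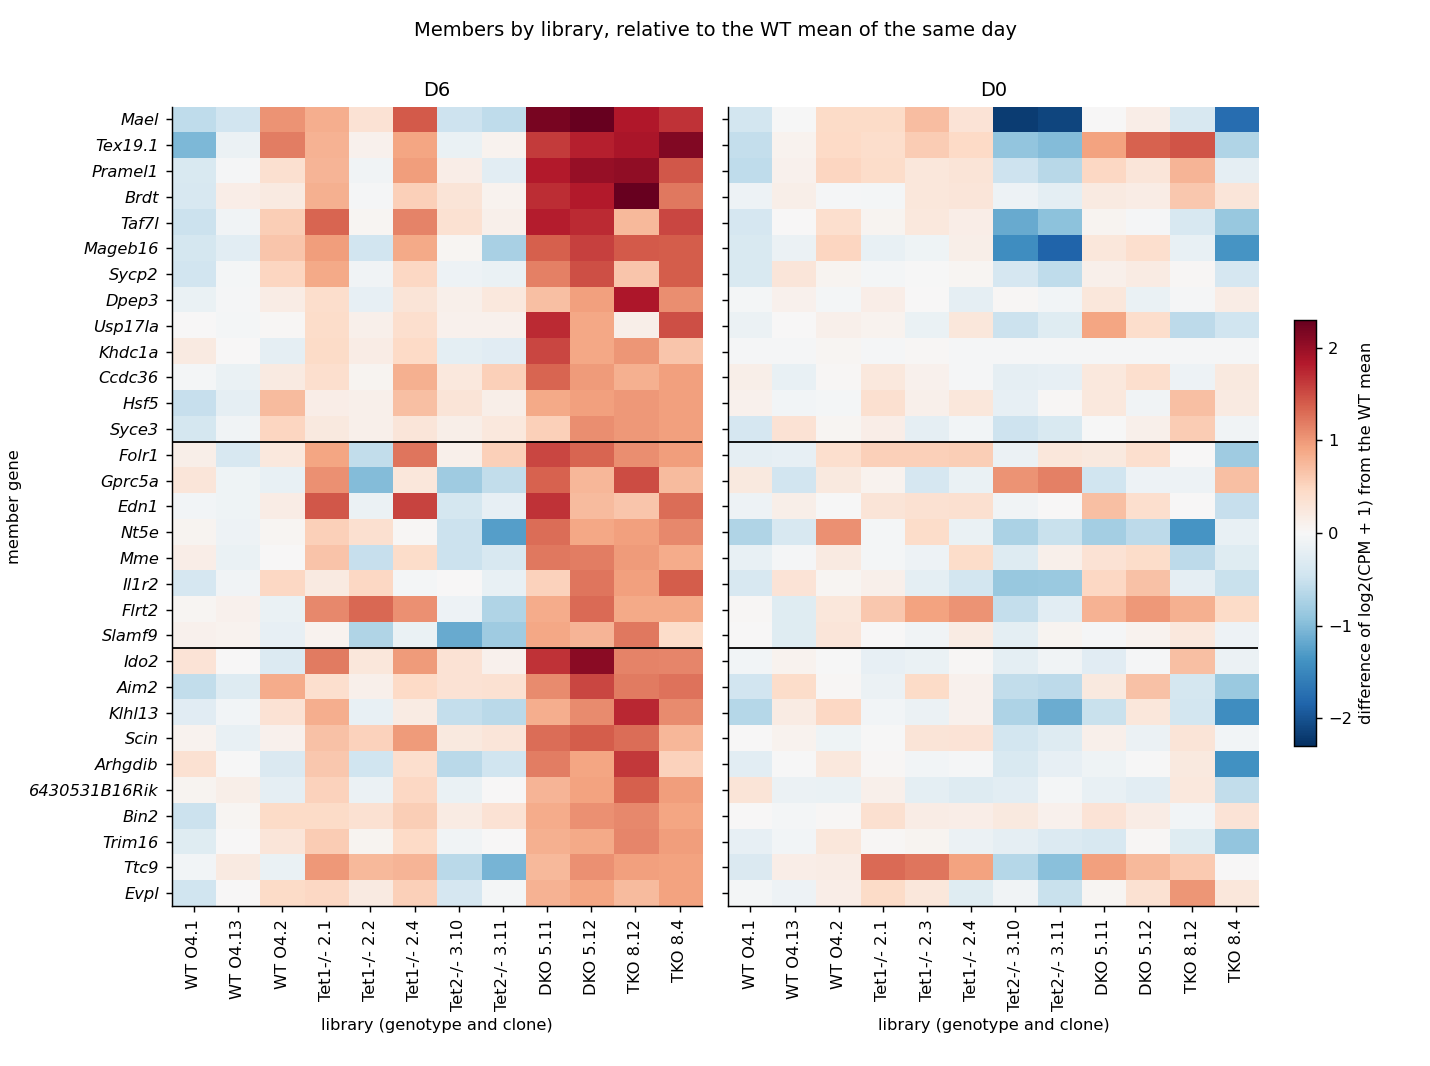
Colour gives the difference of log2(CPM + 1) from the WT mean of the same day, for 31 of the 34 members (rows, in 3 groups by role: germ cell and meiosis, cell surface and secreted, intracellular) and 12 libraries a day (columns). At D6 the 4 DKO and TKO columns are red throughout, as the rule required, while at D0 they are mixed and the *Tet2*-/- columns are mostly blue.

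The members were sorted by hand into 3 groups: 13 germ cell and meiosis genes, 12 intracellular genes and 9 cell surface or secreted genes. Only members were sorted, so no share over all symbols stands beside these counts. The fixed list of germline genes holds 5 of the 34 members. Germ cell and meiosis members had a median DKO minus WT difference of 1.33 and a median TKO minus WT difference of 1.14. *Mael* (chr1:168131516-168168875, mm9), which acts in transposon silencing by piRNAs, had 2.99, 3.42 and 11.3 CPM in WT, 26.2 and 30.1 in DKO and 18.0 and 20.7 in TKO. Its *Tet2*-/- libraries had 3.02 and 3.29 CPM, and *Tet1*-/- libraries 6.57, 9.67 and 14.9. *Tet1*-/- lay under the combined knockouts and overlapped WT, whose highest library was clone O4.2. *Tex19.1* (chr11:121007457-121009633), a germ cell gene that restrains retrotransposons, had 5.0, 10.2 and 26.6 CPM in WT, 36.6 and 41.3 in DKO and 44.0 and 52.6 in TKO. *Brdt* (chr5:107760178-107816077), the testis-specific bromodomain protein, had 0.163, 0.650 and 0.732 CPM in WT, 3.86 and 4.30 in DKO and 2.44 and 6.79 in TKO, an 8.44-fold ratio of mean CPM for the 4 libraries over WT. *Brdt* overlaps *Gm8152* on the other strand, and whether counting used strand is not given in the sources used here.

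*Pramel1* (chr4:142984331-142990063), of the PRAME family, had 1.47, 2.09 and 3.08 CPM in WT, 10.2 and 11.5 in DKO and 7.42 and 11.9 in TKO. *Taf7l* (chrX:130994657-131011029), a germ cell paralogue of a TFIID subunit, had 0.0544, 0.411 and 1.19 CPM in WT, 3.86 and 4.21 in DKO and 1.48 and 3.31 in TKO. *Mageb16* (chrX:76868570-76916774), of the MAGE family, had 1.09, 1.33 and 3.31 CPM in WT, 6.12 and 7.25 in DKO and 6.21 and 6.33 in TKO. The highest WT library of all 3 genes was clone O4.2, and the gap to the lowest DKO or TKO library was narrowest for *Taf7l*. The meiotic members were low. *Sycp2*, of the axial element of the synaptonemal complex, had 0.0544, 0.376 and 1.00 CPM in WT, 2.19 and 3.01 in DKO and 1.22 and 2.74 in TKO. *Syce3*, of its central element, had 0, 0.239 and 0.847 CPM in WT and 0.920 to 1.75 in the 4 combined knockouts, and *Ccdc36*, which promotes the DNA breaks of meiosis, had 1.68 to 2.43 CPM in WT and 4.23 to 6.55. *Syce3* was the member with the smallest margin over the rule, at 0.80 in DKO.

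The remaining germ cell members were *Dpep3*, a testis dipeptidase (0.217 to 0.539 CPM in WT, 1.20 to 3.93 in DKO and TKO), *Hsf5*, of the heat shock factor family (0.870 to 3.47 and 3.89 to 4.39), *Khdc1a*, an oocyte KH-domain gene (0.0385 to 0.380 and 0.869 to 2.48), and *Usp17la*, a deubiquitinase. The last was sorted here by hand, although the fixed lists hold it among 2-cell-like genes and not among germline genes. *Usp17la* had 0.0684, 0.109 and 0.116 CPM in WT, 1.02 and 2.58 in DKO, and 0.204 and 2.07 in TKO, so that TKO replicate 2 lay close to WT. Reads of *Usp17la*, *Pramel1*, *Khdc1a*, *Mageb16* and *Tex19.1* may be shared with other copies of their families, and their counts are uncertain to that extent. WT clone O4.2 was the highest WT library for 22 of the 34 members, and the share over all symbols was not counted. This clone also had the highest member median among WT libraries, 0.19 above the WT mean on the log2 scale.

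**Figure D2:**
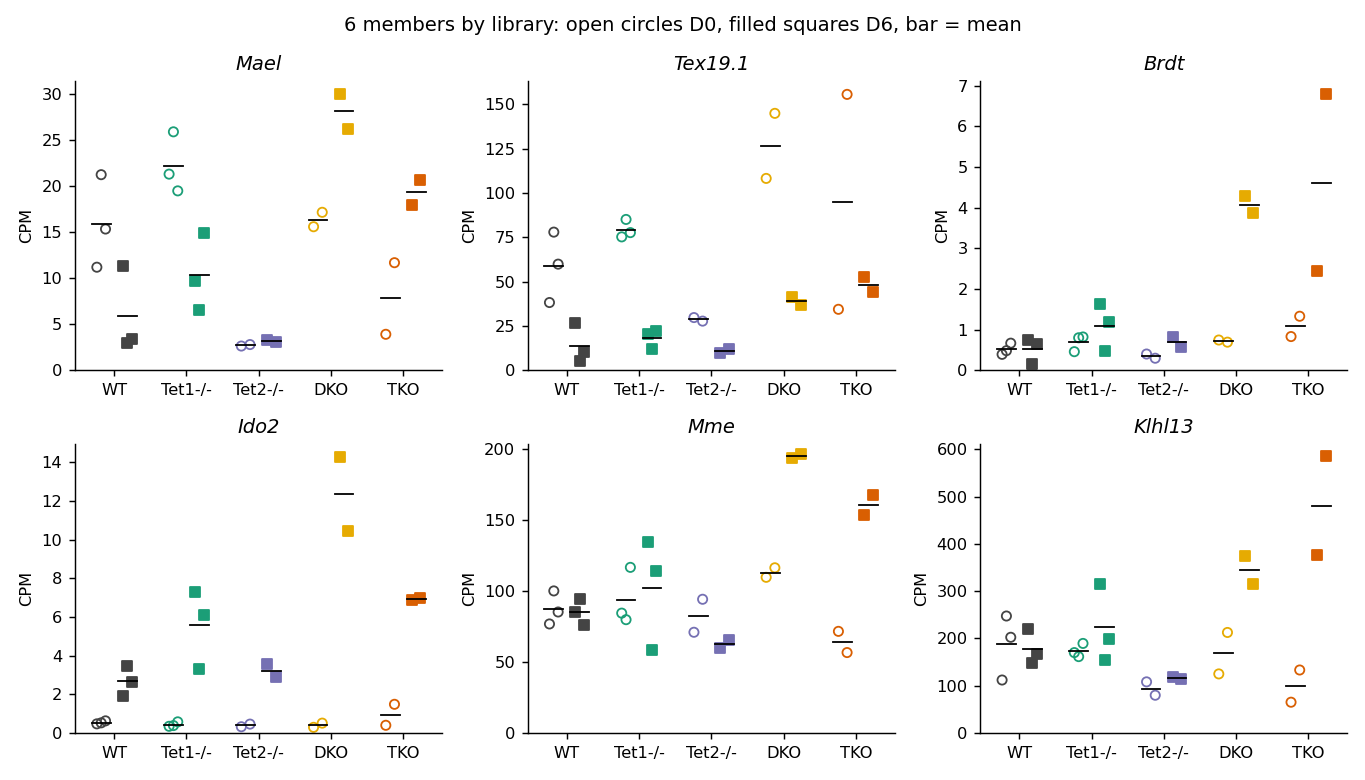
CPM of 6 members (panels) in each library by genotype, with open circles for D0, filled squares for D6 and bars for means of 2 or 3 clones. *Mael* and *Tex19.1* had lower means at D6 than at D0 in WT and *Tet1*-/-, while *Ido2* was higher at D6 in every genotype.

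Members that act at the cell surface or are secreted numbered 9, with median differences of 1.08 in DKO and 0.96 in TKO. *Mme* (chr3:63099794-63186153), the membrane peptidase neprilysin, had 75.9, 85.1 and 94.0 CPM in WT, 194 and 196 in DKO, 153 and 168 in TKO, and 60.0 and 65.6 in *Tet2*-/-. *Folr1* (chr7:109006845-109019302), a folate receptor, had 12.1, 17.4 and 18.9 CPM in WT, 41.8 and 48.1 in DKO and 31.9 and 34.2 in TKO. *Nt5e* (chr9:88222447-88266927), the ectonucleotidase CD73, had 16.1, 18.2 and 18.5 CPM in WT, 33.4 and 44.1 in DKO, 34.9 and 38.9 in TKO, and 6.75 and 12.1 in *Tet2*-/-. The combined knockouts were clear of WT for all 3 genes, and *Tet2*-/- lay under WT for *Mme* and *Nt5e*. *Gprc5a* (chr6:135015669-135034727), an orphan receptor, had 11.4, 12.2 and 16 CPM in WT and 22.4 to 39.0 in the combined knockouts. It lies on chromosome 6, and TKO replicate 2 had the 39.0.

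*Edn1*, which encodes endothelin-1, had 3.76, 3.91 and 4.78 CPM in WT, 7.48 and 15.3 in DKO and 6.99 and 11.5 in TKO. Other members of the group were *Il1r2*, the decoy receptor of interleukin-1 (0.163 to 1.12 CPM in WT, 1.20 to 3.01 in DKO and TKO), *Flrt2*, an adhesion and guidance protein (1.39 to 1.81 and 3.75 to 5.55), and *Slamf9*, of the SLAM family (1.77 to 2.39 and 3.21 to 6.33). *Slamf9* and *Usp17la* were, with *Syce3*, the members nearest to the threshold (TKO minus WT of 0.82 and 0.81). *Lama3*, *Rbp7* and *Aim1* missed only that threshold, with a smaller difference of 0.795, 0.793 and 0.785.

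The 12 intracellular members had median differences of 0.96 in DKO and 1.06 in TKO. *Klhl13* (chrX:22796397-22942208), an adaptor of Cul3 ubiquitin ligases, had the highest CPM of all members, with 147, 167 and 220 in WT, 314 and 373 in DKO, and 375 and 586 in TKO. CPM is not divided by gene length, and *Klhl13* overlaps *Gm14523* on its own strand. *Ido2* (chr8:25642364-25686805), an enzyme of tryptophan catabolism, had 1.89, 2.63 and 3.48 CPM in WT, 10.4 and 14.3 in DKO and 6.88 and 6.99 in TKO. *Aim2* (chr1:175281010-175396171), a sensor of cytosolic DNA, had 2.77, 3.56 and 9.13 CPM in WT, 10.8 and 15.3 in DKO and 11.7 and 12.2 in TKO, so that clone O4.2 of WT came close to the lowest DKO library. *Scin* (chr12:40786356-40860815), which severs actin filaments, had 1.20, 1.63 and 1.66 CPM in WT and 3.24 to 5.49 in the combined knockouts.

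Other intracellular members were *Arhgdib*, an inhibitor of small GTPases (4.89 to 8.48 CPM in WT, 9.72 to 22.1 in DKO and TKO), *Evpl*, the junction protein envoplakin (6.2 to 12.4 and 15.2 to 17.7), and *Bin2*, a BAR-domain protein (3.04 to 6.70 and 9.27 to 11.3). *Trim16*, of the TRIM family, had 0.543 to 1.27 CPM in WT and 2.3 to 3.1 in DKO and TKO, *Ttc9* had 1.81 to 2.63 and 4.25 to 5.46, and *6430531B16Rik* had 1.27 to 1.88 and 3.50 to 5.82. *Aim2*, *Il1r2* and *6430531B16Rik* overlap a gene on the other strand and *Trim16* one on its own strand. *Arhgdib* lies on chromosome 6 and *Scin*, *Flrt2* and *Ttc9* on chromosome 12. For 8 members with more than 1 line in the count table (*Brdt*, *Mageb16*, *Folr1*, *Klhl13*, *Scin*, *Arhgdib*, *Mme* and *Syce3*), every further line also had all 4 combined knockouts above WT. The lines are transcripts of the same gene, with D6 totals of 9220, 8606, 8605 and 9212 counts for *Folr1*. They are therefore not independent of the line that the rule used.

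The rule did not use *Tet1*-/- at D6, but it did use the WT libraries, so the *Tet1*-/- values stand beside WT without a test. The *Tet1*-/- mean lay above the WT mean for 32 of 34 members (49.9% of all symbols), and the *Tet1*-/- minus WT difference had a median of 0.41 (-0.26 to 1.15), beside 0.00 over all symbols. Every *Tet1*-/- library lay above every WT library for 6 members (7.83% of all symbols), among them *Scin*, *Usp17la*, *Flrt2* and *Ttc9*. *Flrt2* had 4.44, 4.65 and 5.57 CPM in *Tet1*-/-, beside 3.75 and 5.55 in DKO, and *Ttc9* had 4.26, 4.41 and 5.28 CPM beside 4.25 and 5.46 in DKO and 4.98 and 5.05 in TKO. Conversely, every *Tet1*-/- library lay below all 4 combined knockouts for 19 members (3.13% of all symbols), *Mael*, *Tex19.1*, *Brdt*, *Nt5e* and *Mme* among them, although the rule fixed the level of the combined knockouts. The clones differed. The member median was 0.66 above the WT mean in clone 2.1, 0.55 in clone 2.4 and 0.08 in clone 2.2, and without clone 2.2 the count of members above every WT library was 22 in place of 6 (17.1% of all symbols). Without WT clone O4.2 it was 17 (14.8%).

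In *Tet2*-/- at D6, the rule's upper limit allowed 0.5, and the members ranged from -1.15 to 0.39 with a median of -0.06. All 34 had both *Tet2*-/- libraries below all 4 DKO and TKO libraries (24.2% of all symbols), which the limits of the rule nearly fixed. For 10 members both also lay below every WT library (29.0% of all symbols), among them *Klhl13*, *Gprc5a*, *Edn1*, *Arhgdib*, *Nt5e*, *Mme*, *Khdc1a*, *Ttc9* and *Slamf9*. For 3 members, *Scin*, *Usp17la* and *Ccdc36*, both lay above every WT library (share of all symbols not counted). *Ttc9* had 0.497 and 1.03 CPM in *Tet2*-/- against 1.81, 2.01 and 2.63 in WT. The 2 members nearest the limit were *Ccdc36* (0.39) and *Aim2* (0.34), and another 59 symbols met every criterion but this one.

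**Figure D3:**
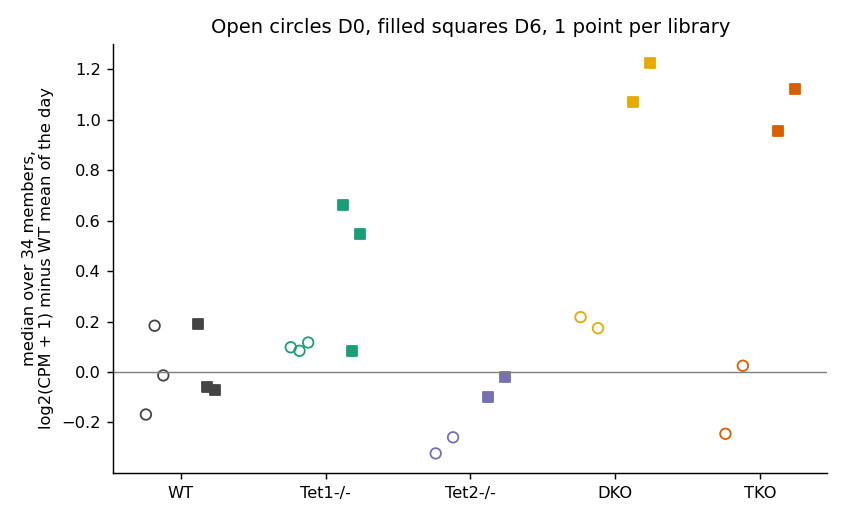
Each point is the median over 34 members of log2(CPM + 1) minus the WT mean of the same day in 1 library, with open circles for D0 and filled squares for D6. The 4 DKO and TKO libraries sit between 0.96 and 1.22 at D6, as the rule required, and between -0.24 and 0.22 at D0.

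The same genes were tested at D0, where the rule used no library, although the clones were the same. The question was whether the members already differed before LIF was withdrawn. The quasi-likelihood test of edgeR on the 12 D0 libraries (14456 genes) covered 33 members. *Khdc1a* was left out, since it had at most 1 count in any D0 library. Calls required a change of over 2-fold besides a p under 0.05 after Benjamini-Hochberg adjustment. In DKO against WT, 0 members were called higher and 0 lower (0.0138% and 0.0208% of all genes tested), with 8 higher and 0 lower at an unadjusted p under 0.05 (6.52% and 7.87% of all genes) and a median log2 fold change of 0.30 (all genes -0.01). DESeq2 called 2 higher, *Flrt2* and *Ttc9*, and 0 lower (0.159% and 0.406% of all genes). *Tex19.1* had 108 and 145 CPM in DKO against 38.2, 59.8 and 77.9 in WT, separate groups with a log2 fold change of 1.15 (SE 0.44, edgeR adjusted p = 0.26). It was 1 of 10 members with both DKO libraries above WT (13.8% of all symbols), and *6430531B16Rik* alone had both below (20.6%).

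In TKO against WT at D0, 0 members were called higher and 1 lower (1.03% and 2.12% of all genes), with 4 higher and 6 lower at an unadjusted p under 0.05 (14.3% and 12.1% of all genes) and a median of -0.02 (all genes 0.02). DESeq2 called 0 higher and 1 lower (0.828% and 1.68% of all genes). The member called by edgeR was *Usp17la*, with 0.114 and 0.237 CPM in TKO against 0.546, 0.707 and 0.841 in WT (log2 fold change -1.92, SE 0.54, edgeR adjusted p = 0.0466). The call was lost without any 1 of the WT clones, without TKO replicate 2 or with the replicate number as a block, and the adjusted p ranged from 0.0265 to 0.154 over 12 other settings. DKO, by contrast, had 1.24 and 2.19 CPM of *Usp17la*, all above WT. Both TKO libraries lay above WT for 4 members (10.6% of all symbols) and below for 3 (18.1%). The TKO clones were unlike each other. Without TKO replicate 1, 7 members were called higher (among them *Tex19.1*, *Brdt*, *Ido2*, *Flrt2*, *Hsf5* and *Evpl*) and 2 lower (*Usp17la* and *Nt5e*), beside 3.1% and 4.65% of all genes. *Tex19.1*, *Hsf5* and *Evpl* lie on chromosome 11 and *Flrt2* on chromosome 12, both shifted upward at D0 in the clone that remained (by 0.39 and 0.40), and the part of these shifts was not tested. Without TKO replicate 2, 0 were called higher and 6 lower (*Mael*, *Taf7l*, *Mageb16*, *Klhl13*, *Arhgdib* and *Trim16*), beside 2.33% and 3.43% of all genes. In each of these fits the clone that remained was assumed to vary like the other groups. *Tex19.1* had 34.4 CPM in replicate 1 and 156 in replicate 2, and *Klhl13* had 65.0 and 133.

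In the average of DKO and TKO against WT at D0, 1 member was called higher and 0 lower (0.291% and 1.16% of all genes). At an unadjusted p under 0.05, 5 were higher and 1 lower (10.4% and 11% of all genes), and DESeq2 also called 1 higher and 0 lower (0.314% and 0.983%). The member was *Flrt2*, with 3.38 and 4.05 CPM in DKO, 2.41 and 3.45 in TKO and 1.08, 1.56 and 2.00 in WT (log2 fold change 1.14, SE 0.26, edgeR adjusted p = 0.0353). *Flrt2* lies on chromosome 12, and without TKO replicate 2 its log2 fold change was 0.98 (adjusted p = 0.0249), under the 2-fold limit. The call was also lost without either DKO clone or without WT clone O4.1 or O4.13, with an adjusted p of up to 0.145 over 14 settings. *Flrt2* and *Brdt* were the 2 members with all 4 DKO and TKO libraries above all WT libraries at D0 (3.89% of all symbols), and 0 members had all 4 below (8.23%). *Brdt* had 0.690, 0.743, 0.828 and 1.33 CPM against 0.390, 0.480 and 0.665.

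In *Tet1*-/- against WT at D0, 0 members were called higher and 0 lower (0% and 0.00692% of all genes). At an unadjusted p under 0.05, 4 were higher and 0 lower (6.05% and 6.6% of all genes), and DESeq2 called 2 higher, again *Flrt2* and *Ttc9*, and 0 lower (0.159% and 0.103%). *Ttc9* had 3.88, 5.05 and 5.32 CPM in *Tet1*-/- and 1.05, 1.87 and 1.88 in WT, groups that did not overlap (log2 fold change 1.59, SE 0.30, edgeR adjusted p = 0.0946). *Flrt2* had 2.89, 3.76 and 4.17 CPM, also above every WT library, as for 6 members in all (8.09% of all symbols; log2 fold change 1.24, SE 0.27, edgeR adjusted p = 0.113). In *Tet1*-/- the D6 range of *Ttc9* (4.26 to 5.28 CPM) overlapped its D0 range, while every D6 library of *Flrt2* (4.44 to 5.57 CPM) lay above D0.

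In *Tet2*-/- against WT at D0, 1 member was called higher and 5 lower (0.816% and 2.37% of all genes), and 12 were lower and 1 higher at an unadjusted p under 0.05 (14.5% and 14.6%). The median log2 fold change of the members was -0.66, beside -0.01 over all genes, and 29 of 33 were below 0. The rule had capped the members in the same *Tet2*-/- clones at D6, so these D0 values are not wholly independent of it. *Mael* had 2.63 and 2.79 CPM in *Tet2*-/- against 11.2, 15.3 and 21.3 in WT (log2 fold change -2.51, SE 0.41, edgeR adjusted p = 0.00820). *Taf7l* had 0.279 and 0.483 against 1.17, 1.87 and 2.72 (-2.23, SE 0.44, edgeR adjusted p = 0.0149), and *Mageb16* had 1.34 and 2.15 against 5.62, 6.65 and 10.8 (-2.12, SE 0.42, edgeR adjusted p = 0.0149). All 3 are germ cell genes whose *Tet2*-/- libraries lay far under WT. *Il1r2* had 0.279 and 0.295 CPM against 0.820, 1.40 and 1.91 (-2.19, SE 0.47, edgeR adjusted p = 0.0184), and *Ttc9* had 0.322 and 0.637 against 1.05, 1.87 and 1.88 (-1.74, SE 0.41, edgeR adjusted p = 0.0257). The member called higher was *Gprc5a*, with 37.8 and 41.1 CPM against 12.8, 21.0 and 21.2 (1.15, SE 0.25, edgeR adjusted p = 0.0190). At D6, where the rule capped *Tet2*-/-, its *Tet2*-/- libraries, at 7.0 and 8.46 CPM, lay under WT instead.

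These calls changed with the libraries included. Without *Tet2*-/- replicate 1 or without replicate 2, edgeR called 0 members higher and 0 lower, with 1 higher and 8 lower at an unadjusted p under 0.05 in each case (8.61% and 8.44% of all genes without replicate 1, 9.43% and 9.12% without replicate 2). Calls over all genes fell as well in these fits, in which *Tet2*-/- had 1 library, assumed to vary like the other groups: 0.0473% were called higher and 0.196% lower without replicate 1, and 0.00676% and 0.027% without replicate 2. All 6 log2 fold changes kept their direction and a size over 1. Without replicate 1 and 2 they were -2.46 and -2.56 for *Mael*, -2.15 and -2.24 for *Il1r2*, and 1.22 and 1.08 for *Gprc5a*. Those of *Taf7l* (-1.93 and -2.72), *Mageb16* (-2.47 and -1.80) and *Ttc9* (-2.25 and -1.28) moved more. Without WT clone O4.2 only *Mael* was called lower (0.812% of all genes), without WT clone O4.13 only *Mael* and *Mageb16* (0.693%), and 0 were called higher in either case (0.222% and 0.159%). The adjusted p ranged up to 0.12 for *Mael* and 0.223 for *Ttc9* over 12 settings. Both *Tet2*-/- libraries lay below every WT library for 15 members at D0 (27.5% of all symbols) and above for 2 (19.4%).

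**Figure D4:**
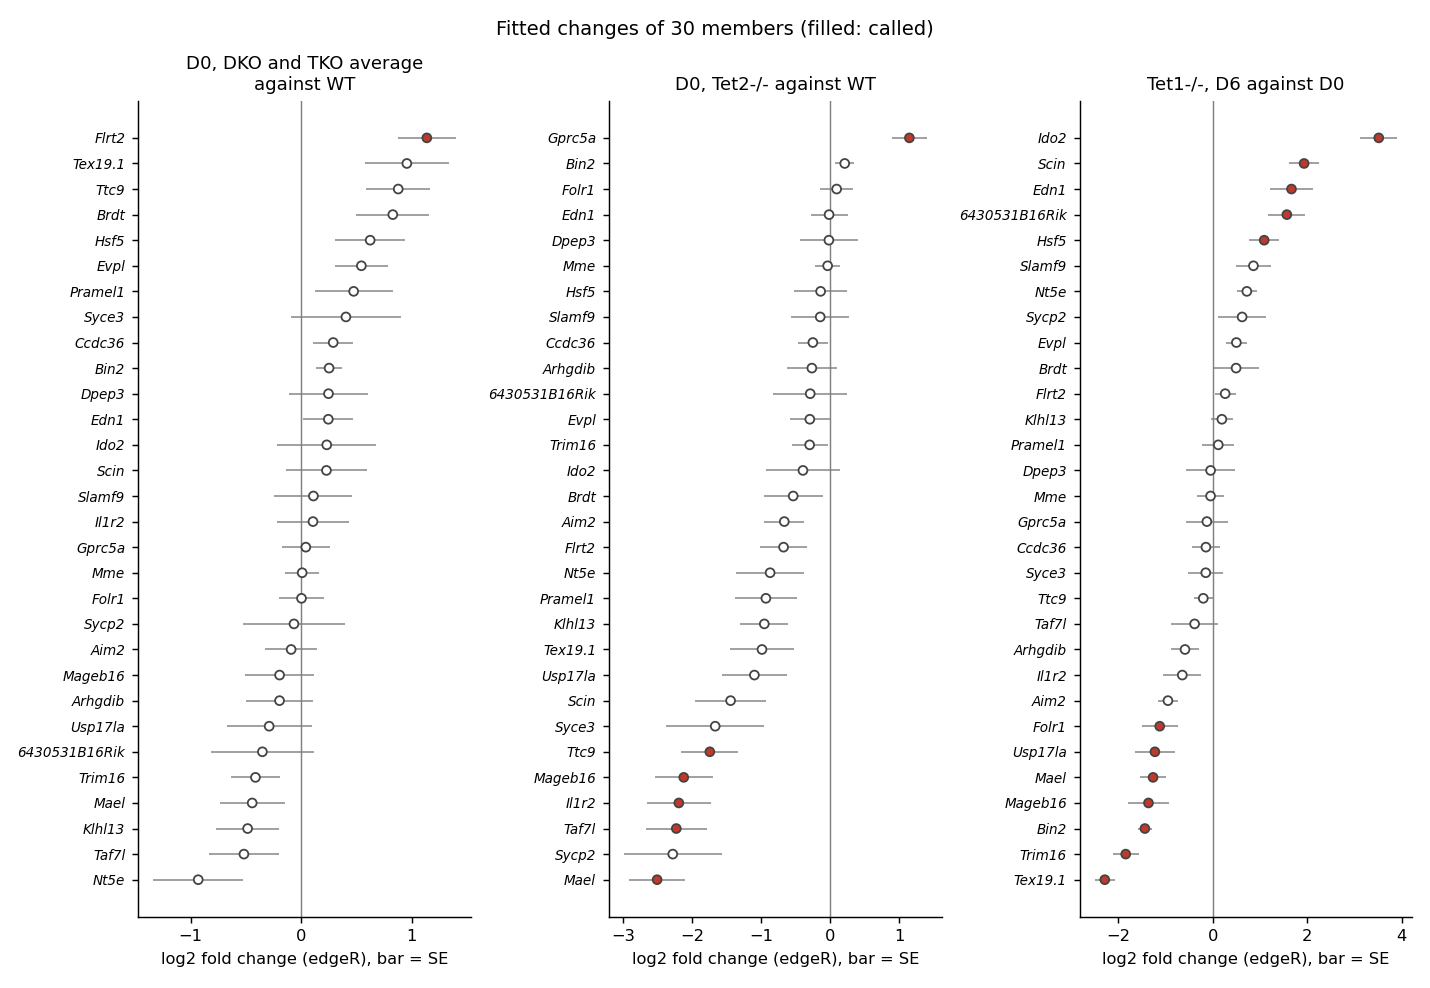
Log2 fold change (point) and standard error (bar) of 30 of the 33 tested members in 3 edgeR fits, with called members filled. Of those shown, 1 was called at D0 in the average of DKO and TKO, 6 in *Tet2*-/-, and 12 between D6 and D0 in *Tet1*-/-, 5 higher and 7 lower.

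Whether members moved as cells differentiated was tested in *Tet1*-/-, the one genotype whose libraries the rule did not use at either day. Over 14536 genes, edgeR called 7 of 33 members higher at D6 than at D0 and 7 lower (19.5% and 10.4% of all genes). Among those higher at D6 were *Ido2* (log2 fold change 3.51, SE 0.39), *Scin* (1.93, SE 0.32), *Edn1* (1.67, SE 0.45), *6430531B16Rik* (1.57, SE 0.39) and *Hsf5* (1.09, SE 0.32). *Ido2* rose from 0.342, 0.380 and 0.573 CPM to 3.30, 6.12 and 7.29, with no overlap between the days. *Scin* rose from 0.494, 0.836 and 0.859 CPM to 2.57, 2.96 and 3.90, and its days were also separate.

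Lower at D6 in *Tet1*-/- were *Tex19.1* (log2 fold change -2.29, SE 0.21), *Trim16* (-1.84, SE 0.27), *Bin2* (-1.44, SE 0.15), *Mageb16* (-1.36, SE 0.44), *Mael* (-1.26, SE 0.28), *Usp17la* (-1.23, SE 0.42) and *Folr1* (-1.12, SE 0.39). *Tex19.1* fell from 75.2, 77.6 and 85.0 CPM to 12.2, 20.5 and 22.1. *Mael* fell from 19.5, 21.3 and 25.9 CPM to 6.57, 9.67 and 14.9. Both genes kept separate ranges on the 2 days. The edgeR adjusted p of the calls named here lay between 6.58e-05 (*Tex19.1*) and 0.0336 (*Usp17la*). With the clone as a block, of which 2.1 and 2.4 were sequenced on both days, 8 members were called higher and 4 lower (18.4% and 9.8% of all genes). *Tex19.1*, *Bin2* and *Trim16* were among the lower calls that this block kept. 7 of the 14 calls (among them *Ido2*, *Scin*, *6430531B16Rik*, *Tex19.1*, *Bin2* and *Trim16*) held under each of 14 other settings. *Folr1* lost its call in 8 of the 14 settings (log2 fold change -1.51 to -0.74), *Usp17la* in 6 and *Mageb16* in 5. *Mael* lost it in 1 (log2 fold change -0.92), *Hsf5* in 3 and *Edn1* in 1. Without D0 clone 2.4, or without D6 clone 2.2, 4 members were called lower (10.1% and 9.83% of all genes).

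In the other genotypes the change with time is a description, since the rule used their D6 libraries. On the log2(CPM + 1) scale the median over members of D6 minus D0 was 1.07 in TKO and 0.86 in DKO, beside -0.05 in WT, 0.04 in *Tet1*-/- and 0.18 in *Tet2*-/-. Every D6 library lay above every D0 library for 26 members in TKO (34.6% of all symbols) and 25 in DKO (42.6%), beside 6 in WT (32.8%), 11 in *Tet1*-/- (33.7%) and 17 in *Tet2*-/- (39.8%). Every D6 library lay below for 1 member in TKO (19.1% of all symbols) and 4 in DKO (27.2%), beside 7 in WT (23.5%), 8 in *Tet1*-/- (20.6%) and 8 in *Tet2*-/- (26.2%). *Tex19.1* was lower at D6 in each genotype on average, with means of log2(CPM + 1) 2.22 lower in WT, 1.66 lower in DKO and 0.60 lower in TKO. The TKO clones moved in opposite directions, from 34.4 to 52.6 CPM in replicate 1 and from 156 to 44.0 CPM in replicate 2. *Bin2* was lower at D6 than at D0 in every library of all 5 genotypes. *Ido2*, *Scin*, *Edn1*, *Hsf5* and *6430531B16Rik* were the opposite, with every D6 library above every D0 library in all 5 genotypes. *Mael* was 1.45 lower at D6 in WT but 0.74 higher in DKO and 1.36 higher in TKO, from D0 levels of 15.6 and 17.2 CPM in DKO and 3.90 and 11.7 in TKO. The D6 difference of the members thus held genes that fell less and genes that rose more.

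Of the 34 members, 5 belong to a list of 33 germline genes under DNA methylation (*Mael*, *Sycp2*, *Taf7l*, *Brdt* and *Dpep3*) and 1 to a list of 2-cell-like genes (*Usp17la*). Of the 28 germline genes that are not members, 11 had all 4 DKO and TKO libraries above WT at D6 (6.84% of all symbols), and their median differences from WT were 0.88 in TKO and 0.59 in DKO, against 0.22 in *Tet2*-/- and 0.03 in *Tet1*-/-. The list was written with earlier results of these data known, and these values are a description. The summed level of all 33 was 337 to 401 CPM in TKO and 302 to 324 in DKO, against 109 to 251 in WT, 124 to 227 in *Tet1*-/- and 202 to 206 in *Tet2*-/-. Several list genes with large D6 differences missed the rule through *Tet2*-/-, such as *Stk31* (1.65 in DKO, 2.21 in TKO, 0.71 in *Tet2*-/-) and *Mov10l1* (1.85, 1.30 and 0.88). Of 31 list genes tested at D0, edgeR called 12 lower in *Tet2*-/- (2.37% of all genes), 7 in TKO (2.12%) and 1 in *Tet1*-/- (0.00692%). These counts changed with single libraries: the 12 became 1 and 0 without *Tet2*-/- replicate 1 and 2 (0.196% and 0.027% of all genes), the 7 became 14 without TKO replicate 2 (3.43%) and 8, with 1 called higher, without TKO replicate 1 (4.65% lower and 3.1% higher), and the 1 became 0 without any 1 of the *Tet1*-/- clones (0%). In DKO it called 0 higher and 0 lower, with 4 higher and 6 lower at an unadjusted p under 0.05 (6.52% and 7.87% of all genes), and DESeq2 called 0 higher and 3 lower (0.159% and 0.406%). Between D6 and D0 in *Tet1*-/-, 2 of 29 list genes were called higher and 15 lower (19.5% and 10.4% of all genes). None of 15 naive and 10 general pluripotency genes was a member, nor was any of 22 mesoderm, 16 endoderm and 14 trophectoderm genes. With 34 members among 22926 symbols, lists this short would seldom hold a member, so these counts of 0 say little. All 4 DKO and TKO libraries lay above WT at D6 for 1 naive and 3 general pluripotency genes (6.84% of all symbols). This held for 0 mesoderm, endoderm or trophectoderm genes. The median D6 differences from WT of these last 3 lists were -0.63, -0.54 and -0.12 in DKO. They were -0.77, -0.72 and -0.33 in TKO, and -1.83, -1.21 and -1.48 in *Tet2*-/-.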

How the data were processed

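The data are RNA-seq counts of 24 libraries. Per the labels and the study's methods, the authors mapped paired-end reads to mm9 with STAR 2.5.1, and deposited raw counts per RefSeq transcript, named by symbol and not normalized. The labels also name DESeq2. The sources name both HTSeq and featureCounts as the counter, and its strand setting is not given in the sources used here. Symbols with several lines were read by the first of them (31928 lines, 22926 symbols, 4911 with more than 1 line). The members, gene lists, role groups and motifs were chosen with earlier results of these data known. All lists were written by hand.

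CPM used totals over first lines, with a pseudocount of 1 on the log2 scale. The authors normalized to ERCC spike-ins, a scaling not used here, so that CPM differences are relative to each library's total. Tests used edgeR 4.0.16 (R 4.3.3, limma 3.58.1): TMM scaling, filterByExpr with a minimum count of 10, and the quasi-likelihood test with Benjamini-Hochberg adjustment over all genes, on the 12 D0 libraries (14456 genes) or the 6 *Tet1*-/- libraries (14536 genes). Calls needed an adjusted p-value under 0.05 and a log2 fold change over 1 in size. DESeq2 1.42.0, other scalings, no filter, blocks, 1 fit of all 24 libraries and leaving out each library were alternatives. The fits were also run on simulated counts, and the outcome is not reported here. Replicate numbers were not taken to pair the samples: deviations of same-numbered libraries correlated at -0.06 to 0.27 among D0 groups and at 0.07, 0.06 and 0.16 between days in *Tet1*-/-, so not every pair exceeded 0.1. Between days, the 0.07 and 0.16 belong to clones 2.1 and 2.4, each the same clone on both days, and the 0.06 to clone 2.3 beside 2.2. The main fit left these clones unpaired, and the block by clone called 4 members lower in place of 7. Named genes were the 12 members with the largest D6 differences, the 6 with the highest CPM, members called or on a list, those nearest the threshold and the Tet genes, with the remaining members named to account for the others. Values of 3 members are not reported here, though they stay in the counts and medians. Promoters are from RefSeq (GRCm38.p6), and gene positions from GENCODE vM1 (mm9).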

Additional observations from a re-analysis of the deposited data

Results flagged for a closer look

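At D0, 6 members had every library of 1 knockout above all WT libraries and every library of another below all WT libraries, as had 13.7% of all symbols with a D0 count. The difference between these knockouts was not tested. On the log2(CPM + 1) scale, *Tex19.1* was 2.09 higher in DKO than in *Tet2*-/-. *Ttc9* was 1.96 higher in *Tet1*-/- than in *Tet2*-/-, with DKO also above WT. *Il1r2* was 1.43 higher and *Ccdc36* 0.52 higher in DKO than in *Tet2*-/-. *Usp17la* was 1.19 higher in DKO than in TKO, with *Tet2*-/- also below WT, and *Mme* was 0.82 higher in DKO than in TKO.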

How the results depend on the processing

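The number of members depended on the settings of the rule. It was 34 with TMM scaling (33 of them shared) or the highest line of a symbol, 22 with totals over all lines, 64 and 16 with pseudocounts of 0.5 and 5 (34 and 8 shared), 15 and 91 with minimum differences of 1.0 and 0.6, and 32 to 59 with 1 library left out (59 without WT clone O4.2, 54 without TKO replicate 2). Low members rest on the pseudocount, and depth limits those with under 1 CPM in WT. In *Tet1*-/- at D6, the member median over WT was 0.20 to 0.51 with other pseudocounts or TMM, and 0.29 to 0.63 with 1 library left out, while 6 to 22 members lay above every WT library (17 without WT clone O4.2, beside 14.8% of all symbols, and 22 without *Tet1*-/- clone 2.2, beside 17.1%).

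At D0, members called higher in DKO numbered 1 without a filter and 2 by DESeq2 (0.129% and 0.159% of all genes), and those called higher in *Tet1*-/- numbered 1 without a filter, 2 by DESeq2 and 1 in the fit of all 24 libraries (0.0875%, 0.159% and 0.0767%). That fit called 0 members lower in TKO and 0 higher in *Tet2*-/- (1.23% and 0.55%). With 1 library left out, higher and lower calls numbered 0 to 0 and 0 to 0 in DKO (0% to 0.00694% and 0% to 0.0208% of all genes) and in *Tet1*-/- (0% to 0.0416% and 0% to 0.0208%). They numbered 0 to 7 and 0 to 6 in TKO (0.402% to 3.1% and 1.16% to 4.65%), 0 to 3 and 0 to 1 in the average of DKO and TKO (0.0405% to 1.22% and 0.27% to 2.88%), and 0 to 1 and 0 to 7 in *Tet2*-/- (0.00676% to 1.29% and 0.027% to 2.8%). Between days in *Tet1*-/-, they numbered 5 to 10 and 4 to 8 (18.4% to 20.9% and 9.46% to 12.6%). The cause was not tested.

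With the replicate number as a block, 0 members were called lower in TKO at D0 (1.9% of all genes), and the calls were 0 and 0 in DKO (0.0415% and 0.0761%) and *Tet1*-/- (0% and 0.00692%), 1 higher in the average (0.221%), 1 higher and 5 lower in *Tet2*-/- (0.782% and 1.91%), and 6 higher and 7 lower between days in *Tet1*-/- (19.3% and 10.8%). With the clone as a replicate block, the last were 8 and 4 (18.4% and 9.8%). No named call changed sign among 294 values under other settings, and 64 of those values lost the call, 50 of them with a library left out.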
